A study of Mus musculus with 5 samples.

Results

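The genes described here are 10 transcription factors and co-activators of B lineage commitment: Pax5, Ebf1, Spib, Tcf3, Ikzf1, Ikzf3, Foxo1, Pou2af1, Bach2 and Irf4. They were taken as a named list, chosen with earlier results of these data known. All 10 had a row among the 39056 genes of the count table, which Ensembl identifiers linked to GENCODE symbols. RNA had been sequenced from haematopoietic stem and progenitor cells of C57BL/6 mice at postnatal day 15, sorted from bone marrow as the LSK population (lineage marker negative, Sca-1 positive, Kit positive), with about 12000 cells per library. There were 2 wild-type (WT) libraries and 3 libraries from mice with a Gabbr1 null mutation, the gene for 1 subunit of this receptor for the transmitter GABA (GABA-B). The labels name no other allele or treatment and do not say which part of Gabbr1 is missing, whether each library came from its own animal, or the sex of the mice. The series design gives the same 2 and 3, whereas the extraction protocol names 4 of each genotype. The p-values below therefore rest on library-to-library spread, which may be technical.

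Commitment to the B lineage proceeds through a relay of transcription factors. Ikaros (Ikzf1) and the E protein E2A (Tcf3) act in multipotent cells that are still open to several fates, E2A and Foxo1 then act with Ebf1 to specify the B fate, and Ebf1 switches on Pax5, which closes the other fates. Octamer co-activator OBF-1 (Pou2af1), Spi-B, Irf4, Bach2 and Aiolos (Ikzf3) act during and after the pre-B stage. Lineage-depleted LSK cells lie upstream of most of this relay, and low levels of such transcripts there are known as lymphoid priming.

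Library totals lay between 6972753 and 8150774 counts, and levels are given in CPM, counts scaled to the size of each library after TMM normalisation. Gabbr1 had 402 and 403 counts in WT and 289, 264 and 268 in null, and its log2 fold change was -0.59, with a standard error of 0.13 (adjusted p in edgeR = 0.0361). That call was lost when either WT library, null library 2 or null library 3 was left out, with an adjusted p of up to 0.380. Of the LSK gate genes, Kit was read at 864 to 1049 CPM and Ly6a at 12.9 to 30.3 CPM over the 5 libraries. Over all 13467 tested genes, 289 were higher and 45 lower in null at an adjusted p under 0.05 in the quasi-likelihood test of edgeR. The counts were 101 and 37 without WT library 1, 32 and 0 without WT library 2 and 316 and 15 without null library 3. All log2 fold changes below are null over WT from that fit, and adjusted p-values are Benjamini-Hochberg values over all tested genes.

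8 of the 10 factors rose in null LSK cells and none fell, where 2.15% of all tested genes rose and 0.334% fell. Since the list was chosen with earlier results of these data known, this contrast is a description and not a test. Spib, Pou2af1, Pax5, Ikzf3 and Ebf1 rose by 6.32-fold to 12.4-fold, Irf4 by 3.15-fold, Foxo1 by 2.06-fold and Bach2 by 1.74-fold. Tcf3 and Ikzf1, the factors that were already abundant in WT, did not pass the test. All 10 were tested, their median log2 fold change was 2.16 against 0.00 over all tested genes, and in each of them the 3 null libraries lay above both WT libraries, as in 15.5% of tested genes. In RNA from bulk cells, more cells of a type and more RNA per cell cannot be told apart, so a rise is a rise in the share of the library's transcripts.

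**Figure D1:**
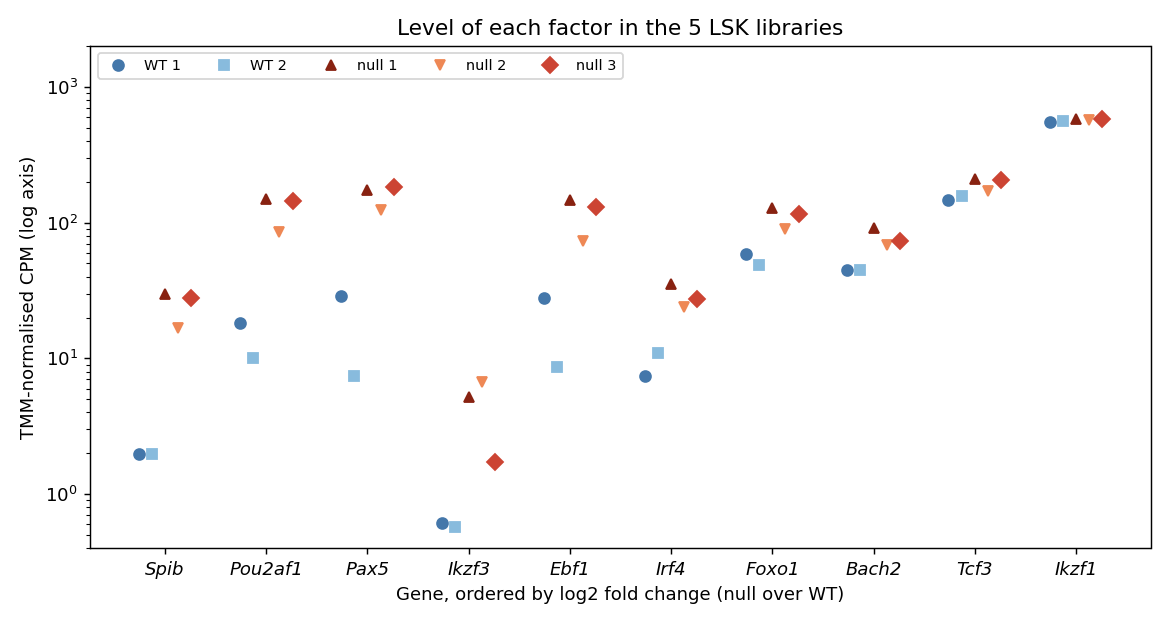
TMM-normalised CPM (log axis) of each of the 10 factors in the 2 WT and 3 null libraries, with genes ordered by log2 fold change and 1 point per library. The null points lie above the WT points for every gene, by the widest margin for Spib and the narrowest for Ikzf1.

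The 2 factors that act first were the most abundant and had the smallest differences. Ikzf1 (chromosome 11, 11685003 to 11772926, mm10) encodes Ikaros, a zinc finger protein required for lymphoid priming. Its level was 546 and 561 CPM in the WT libraries and 578, 568 and 584 CPM in null. The WT libraries were below the null libraries by a narrow margin, and the log2 fold change was 0.06 ± 0.11 (SE) with a 95% interval of -0.19 to 0.31 (adjusted p in edgeR = 0.893). The interval reaches from 0.878-fold to 1.24-fold, so a change as large as that of Bach2 lies outside it.

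Tcf3 (chromosome 10, 80409514 to 80433647) encodes the E proteins E12 and E47, which bind E-box sequences and activate Ebf1 together with other factors. Its level was 147 and 156 CPM in the WT libraries and 210, 171 and 206 CPM in null. All null libraries were above WT, with null library 2 nearest to it. The log2 fold change was 0.37, with a standard error of 0.12 (95% interval 0.11 to 0.63), which passed neither in edgeR (adjusted p = 0.165) nor in any of 12 alternative fits (adjusted p at least 0.0748).

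The specification and commitment factors Ebf1, Foxo1 and Pax5 rose. Ebf1 (chromosome 11, 44617317 to 45008091) encodes early B-cell factor, which opens chromatin at B lineage genes. It stood at 27.9 and 8.69 CPM in the WT libraries and at 148, 73.6 and 131 CPM in null. WT library 1 was 3.22-fold above WT library 2, and the lowest null library was 2.64-fold above the higher WT library. The log2 fold change was 2.66, with a standard error of 0.38 (adjusted p in edgeR = 0.00271). Without WT library 2 it was 2.07 and did not pass (adjusted p = 0.114), without WT library 1 it was 3.75 (adjusted p = 0.0185), and it did not pass in a robust fit (adjusted p = 0.308).

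Pax5 (chromosome 4, 44524757 to 44710487) encodes the paired-domain factor that holds cells in the B lineage. Some exon bases of Pax5, Foxo1 and Bach2 are shared with genes annotated on the opposite strand, whose reads could not be told apart here. The level of Pax5 was 28.8 and 7.41 CPM in the WT libraries and 174, 123 and 182 CPM in null. As with Ebf1, the WT libraries were far apart, by 3.89-fold, and null library 2 was the lowest of the null libraries. The log2 fold change was 3.11, with a standard error of 0.37 (adjusted p in edgeR = 0.000942). It was 4.42 without WT library 1 (adjusted p = 0.00476) and 2.47 without WT library 2 (adjusted p = 0.0163), and in a robust fit Pax5 did not pass (adjusted p = 0.237).

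Foxo1 (chromosome 3, 52268336 to 52353221), a forkhead factor needed for Rag and Il7r expression in pro-B cells, was more even within WT. Its level was 59.0 and 48.4 CPM in the WT libraries and 128, 89.3 and 115 CPM in null. The groups did not overlap, and the log2 fold change was 1.04, with a standard error of 0.16 (adjusted p in edgeR = 0.00348). The call was lost without WT library 1 (adjusted p = 0.0513) or WT library 2 (0.186).

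Among the factors of later stages, the 2 largest changes were those of Spib and Pou2af1. Spib (chromosome 7, 44525993 to 44532071) encodes an Ets family factor close to PU.1 that is used in B cells and plasmacytoid dendritic cells. It had 16 and 14 counts in WT and 223, 126 and 226 in null, which is 1.97 and 1.99 CPM against 29.7, 16.6 and 27.9 CPM. The WT libraries were nearly equal here, and the lowest null library was 8.34-fold above them. The log2 fold change was 3.63, with a standard error of 0.32 (adjusted p in edgeR = 0.000137), and Spib passed in all 12 alternative fits.

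Pou2af1 (chromosome 9, 51213708 to 51240080) encodes OBF-1, a co-activator that binds Oct factors on octamer sequences of immunoglobulin promoters. Its level was 18.2 and 10.1 CPM in the WT libraries and 150, 84.7 and 144 CPM in null. The null libraries were all at least 4.65-fold above the higher WT library. Its log2 fold change was 3.14, with a standard error of 0.28 (adjusted p in edgeR = 0.000137), and it did not pass in a robust fit (adjusted p = 0.0937).

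Irf4 (chromosome 13, 30749226 to 30766976), an interferon regulatory factor that promotes light chain rearrangement and later plasma cell fate, was 7.38 and 11.0 CPM in the WT libraries and 35.3, 23.9 and 27.2 CPM in null. It differed from Pax5 and Ebf1 in that WT library 2 was the higher of the WT libraries. The log2 fold change was 1.66, with a standard error of 0.23 (adjusted p in edgeR = 0.00226). Bach2 (chromosome 4, 32238804 to 32586108), a repressor that holds back plasma cell and myeloid programmes, was 44.7 CPM in both WT libraries and 91.9, 68.6 and 73.5 CPM in null, with a log2 fold change of 0.80, with a standard error of 0.14 (adjusted p in edgeR = 0.00841). Neither call held without WT library 1 or without WT library 2, with adjusted p of 0.0703 and 0.0636 for Irf4 and 0.0992 and 0.201 for Bach2 without WT libraries 1 and 2.

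Ikzf3 (chromosome 11, 98464902 to 98546031) encodes Aiolos, an Ikaros relative induced at the pre-B stage. It had 5 and 4 counts in WT and 39, 51 and 14 in null, and its level was 0.615 and 0.570 CPM against 5.20, 6.73 and 1.73 CPM. It was the least abundant of the factors and the only 1 of the 10 that was highest in null library 2 and lowest in null library 3. The log2 fold change was 2.90, with a standard error of 0.66 (adjusted p in edgeR = 0.0398). The call was lost in limma-voom (adjusted p = 0.224), and when WT library 1 (0.189), WT library 2 (0.431) or null library 2 (0.0823) was left out.

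**Figure D2:**
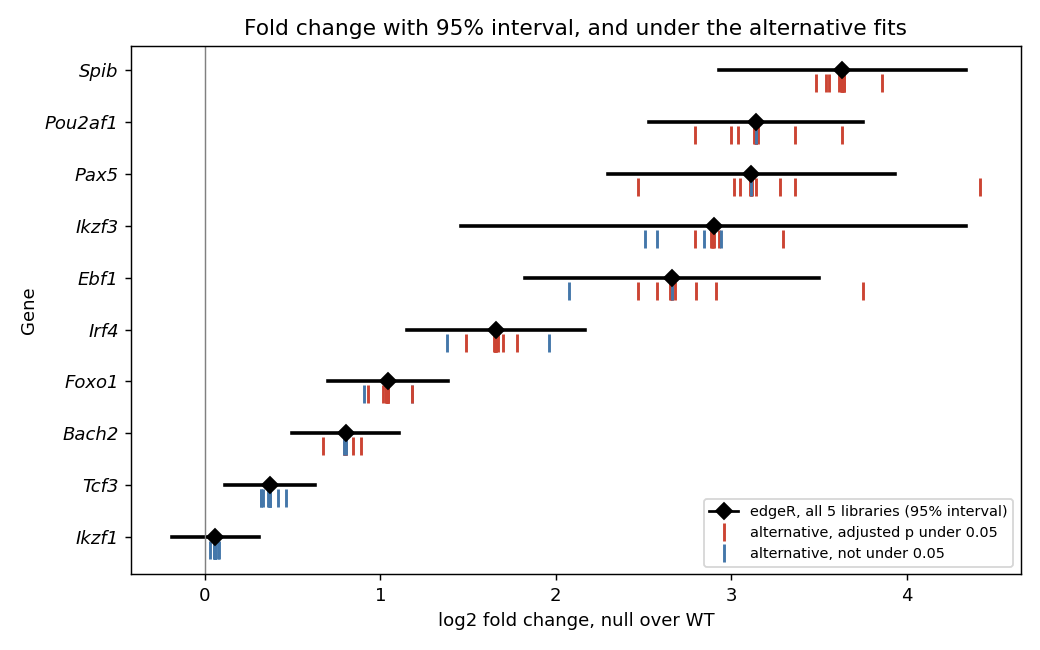
Log2 fold change (null over WT) of each factor with its 95% interval in edgeR (diamond and line), and under 11 or 12 alternative fits (ticks, red where the adjusted p was under 0.05). All ticks lie right of 0, Spib is the only factor with all ticks red, and Tcf3 and Ikzf1 have none.

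How many of the factors passed depended on having both WT libraries. 4 passed without WT library 1 (Pax5, Ebf1, Spib and Pou2af1) and 3 without WT library 2 (Pax5, Spib and Pou2af1), where 1 WT library was left. Without null library 1, 2 or 3 the counts were 8, 7 and 8. The robust fit called 5, which were Spib, Ikzf3, Foxo1, Bach2 and Irf4. Over all tested genes it called 319 higher and 61 lower, against 289 and 45 in the fit used throughout. No factor had a negative log2 fold change in any of these fits.

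The factors varied together within null and in different ways within WT. Null library 2 had the lowest null level of 9 of the 10 factors, Ikzf3 being the exception, and null library 1 had the highest level of 7. In WT, 5 factors were higher in library 1 and 5 in library 2, and 3 differed by more than 1.5-fold between the WT libraries, namely Pax5, Ebf1 and Pou2af1. Over the 5 libraries the log2 CPM of Pax5 and Ebf1 had a Pearson correlation of 0.99, the highest among pairs of the factors. The lowest was that of Ikzf1 and Ikzf3, at 0.60. These values include the difference between genotypes and come from libraries that share their depth and sort, so they are descriptions. Of the 10813 genes with a mean of at least 5 CPM, those most like Pax5 over the 5 libraries were Cecr2, Ehd2 and Cd36 (r = 1.00 for each, rounded), those most like Ebf1 were Pdcd10, Igll1 and Gpat3, and those most like Spib were Epha2, Stx17 and Pde4d. Igll1, a surrogate light chain gene, was the only B lineage list gene among these 9.

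Per kilobase of exon, the factors stood in different orders in the 2 genotypes. In WT, Ikzf1 stood at 95.8 ± 1.77 CPM per kilobase (SD, n = 2) and Tcf3 at 37.5 ± 1.55, followed by Foxo1 at 6.20 ± 0.860, Pou2af1 at 5.56 ± 2.25 and Bach2 at 4.50 ± 0.00285. Pax5, Ebf1 and Irf4 lay at 2.04 ± 1.71, 1.88 ± 1.40 and 1.87 ± 0.516, which do not differ beyond their spread, and Spib and Ikzf3 at 0.691 ± 0.00604 and 0.0677 ± 0.00369. In null, Ikzf1 led with 99.9 ± 1.37 CPM per kilobase (SD, n = 3), and Pou2af1 at 49.5 ± 14.1 and Tcf3 at 48.5 ± 5.29 did not differ beyond their spread. Pax5 came next at 18.0 ± 3.59, then Foxo1 at 12.8 ± 2.26 and Ebf1 at 12.1 ± 3.99, whose ranges overlap. Spib, Bach2 and Irf4 followed at 8.62 ± 2.47, 7.85 ± 1.24 and 5.88 ± 1.20, and Ikzf3 was last at 0.520 ± 0.293. With the length of the longest transcript in place of all exons, the null level of Ebf1 was 19.7 and that of Tcf3 66.4 CPM per kilobase, which puts Ebf1 above Foxo1 and beside Pax5 at 19.9.

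The relatives and binding partners of the factors showed how far the change extended within each family. Of 17 tested relatives and partners, 3 rose and none fell (2.15% and 0.334% of all tested genes), and their median log2 fold change was 0.10. The 3 that rose were Id3, Id2 and Irf8. Id2 and Id3 encode proteins that bind E proteins such as E2A and block their binding to DNA. Id3 was 4.18 and 2.99 CPM in the WT libraries and 25.05, 15.3 and 22.1 CPM in null (log2 fold change 2.52, standard error 0.28, adjusted p in edgeR = 0.000647), and Id2 was 10.3 and 7.55 CPM in the WT libraries and 38.2, 23.0 and 15.2 CPM in null (2.82-fold, 95% interval 1.70 to 4.70, adjusted p in edgeR = 0.0378). Id1 was 1.72 to 4.41 CPM over the 5 libraries and did not pass (adjusted p in edgeR = 0.963). The Id3 call was lost without WT library 2, and that of Id2 without either WT library, in limma-voom and in the robust fit.

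Against the summed counts of Id1, Id2 and Id3, the counts of Tcf3 were lower in null. The log2 ratio of Tcf3 to the Id sum was 3.17 and 3.37 in WT and 1.64, 2.05 and 2.38 in null, so that the groups did not overlap. The Id sum rested on 132 and 105 counts in WT and 507, 313 and 322 in null. Such ratios are not corrected for gene length, so only their differences between libraries can be read, and they were described without a test, since with 2 and 3 libraries no exact permutation p can fall below 0.1.

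In the Spi family, Spi1, which encodes PU.1 and is shared by myeloid and lymphoid progenitors, was 83.9 and 106 CPM in the WT libraries and 93.8, 90.7 and 85.3 CPM in null, with a log2 fold change of -0.08, with a standard error of 0.12 (adjusted p in edgeR = 0.867). The log2 ratio of Spib to Spi1 counts was -5.37 and -5.68 in WT and -1.66, -2.44 and -1.61 in null. Spic, the remaining member of that family, had 14 to 29 counts per library and did not pass. Pou2f1 and Pou2f2, the Oct factors that OBF-1 binds, had values of 0.30 and -0.34 on the log2 scale, with standard errors of 0.10 and 0.14, neither of which passed (adjusted p in edgeR = 0.21 and 0.296). The log2 ratio of Pou2af1 to Pou2f2 counts was -1.26 and -2.06 in WT and 2.03, 1.47 and 2.05 in null.

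Irf8, which acts with PU.1 in B cells, monocytes and dendritic cells, was 39.1 and 34.5 CPM in the WT libraries and 159, 86.6 and 77.7 CPM in null (log2 fold change 1.55, standard error 0.26, adjusted p in edgeR = 0.00728). That call was lost without either WT library and in the robust fit. The log2 ratio of Irf4 to Irf8 overlapped between the groups, at -2.40 and -1.65 in WT and -2.17, -1.85 and -1.51 in null. Among Ikaros relatives, Ikzf2, Ikzf4 and Ikzf5 did not pass, and the log2 ratio of Ikzf3 to Ikzf1 was -9.66 and -9.77 in WT and -6.78, -6.39 and -8.35 in null. Foxo3, Foxo4, Bach1, Tcf4 and Tcf12 did not pass either, with log2 fold changes between -0.23 and 0.29. Zfp521, a zinc finger protein known to antagonise Ebf1, was 48.0 and 43.3 CPM in the WT libraries and 38.8, 44.3 and 34.3 CPM in null (adjusted p in edgeR = 0.574). The log2 ratio of Ebf1 to Zfp521 counts was -0.78 and -2.31 in WT and 1.93, 0.73 and 1.94 in null, and that of Pax5 to Ebf1 was 0.04 and -0.23 in WT and 0.24, 0.74 and 0.47 in null.

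**Figure D3:**
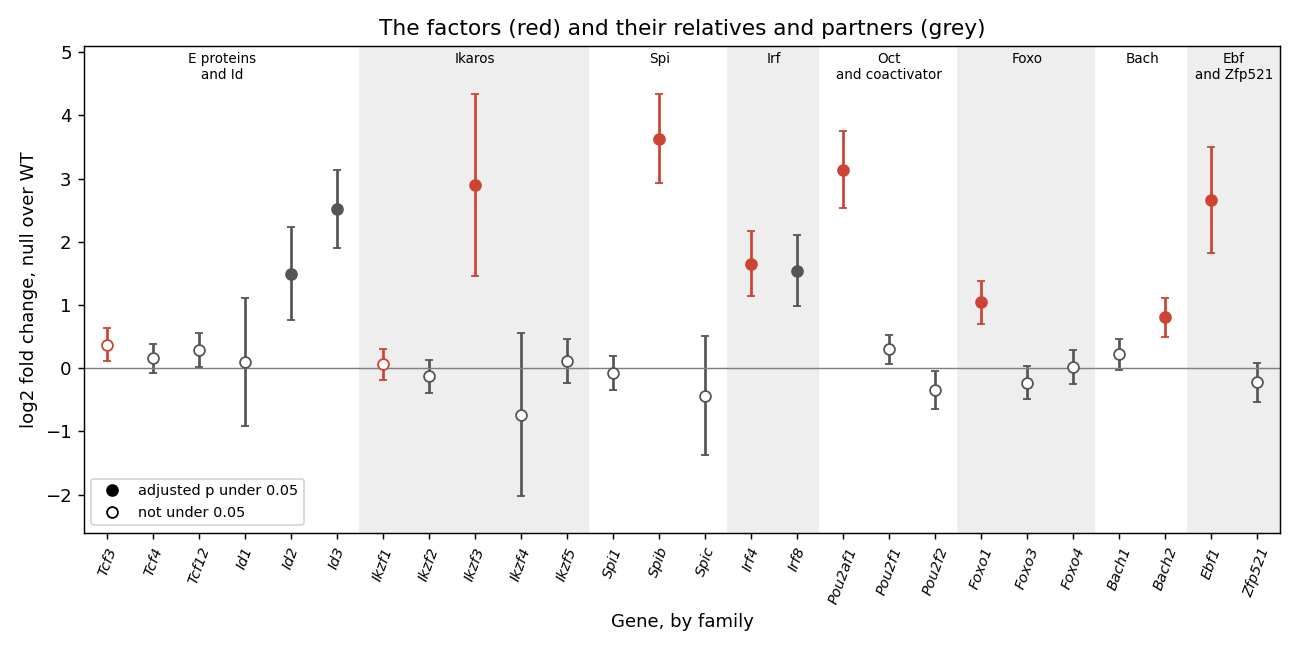
Log2 fold change (null over WT) with 95% interval from edgeR for the factors other than Pax5 (red) and the tested relatives and partners (grey), by family, filled where the adjusted p was under 0.05. Spib, Ikzf3, Pou2af1 and Ebf1 stand between 2.66 and 3.63, while Spi1, Ikzf1, Pou2f2 and Zfp521 lie between -0.34 and 0.06.

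The promoters of 4 of the factors with large changes are shown to place these genes beside the motifs of the factors themselves. The sequences are the 250 bases before the RefSeq start (GRCm38.p6), in the direction of the gene, and none of these windows overlaps a GENCODE exon. 9 of the 10 factors had an entry in the RefSeq promoter table, and Ikzf3 did not. Capitals mark E-boxes (CANNTG), the motif of E proteins. The EBF motif (CCCNNGGGA) and the octamer (ATGCAAAT), searched like the E-box on both strands, had no match in them.
Pax5 (chr4:44710695-44710944, minus strand): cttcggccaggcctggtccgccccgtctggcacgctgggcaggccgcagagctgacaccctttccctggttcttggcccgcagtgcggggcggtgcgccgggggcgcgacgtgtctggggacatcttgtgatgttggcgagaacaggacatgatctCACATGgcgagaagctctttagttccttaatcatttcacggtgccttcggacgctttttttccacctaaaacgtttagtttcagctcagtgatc
Ebf1 (chr11:44619978-44620227, plus strand, the inner of its 2 starts): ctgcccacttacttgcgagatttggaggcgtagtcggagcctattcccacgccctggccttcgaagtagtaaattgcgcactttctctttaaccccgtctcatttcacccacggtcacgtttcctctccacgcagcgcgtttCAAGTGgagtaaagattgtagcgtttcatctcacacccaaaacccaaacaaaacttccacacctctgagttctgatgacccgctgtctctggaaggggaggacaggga
Spib (chr7:44532072-44532321, minus strand): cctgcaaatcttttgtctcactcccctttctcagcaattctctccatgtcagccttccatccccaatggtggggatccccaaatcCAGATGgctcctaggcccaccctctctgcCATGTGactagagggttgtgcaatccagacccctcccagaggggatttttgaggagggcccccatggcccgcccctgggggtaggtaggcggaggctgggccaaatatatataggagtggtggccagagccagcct
Pou2af1 (chr9:51213440-51213689, plus strand): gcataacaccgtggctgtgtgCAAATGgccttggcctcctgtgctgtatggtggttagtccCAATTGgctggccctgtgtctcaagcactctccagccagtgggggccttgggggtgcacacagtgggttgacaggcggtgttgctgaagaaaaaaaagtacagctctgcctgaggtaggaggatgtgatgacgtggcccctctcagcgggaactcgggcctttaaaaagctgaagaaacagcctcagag

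Pax5 and Ebf1 each had 1 E-box in these windows and Spib and Pou2af1 had 2 each, where 66.2% of 32841 promoter windows of the same length held at least 1. The outer start of Ebf1, not shown, had no E-box. An EBF motif was present in 5.6% of all windows and an octamer in 1.6%. Among the 11 windows of the factors, which count 2 starts each for Ebf1 and Ikzf1, the EBF motif occurred only in that of Foxo1, beginning 91 bases before the start and matching the other strand in letters shifted by 1 base. That site is shown with 40 bases on each side and the motif in capitals.
Foxo1 (chr3:52268206-52268294, plus strand): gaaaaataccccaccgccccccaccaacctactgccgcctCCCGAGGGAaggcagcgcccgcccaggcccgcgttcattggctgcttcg

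The Foxo motif GTAAACA (3.17% of all windows) and the octamer were in none of the 11, and the Ikaros motif TGGGAA (21.6% of all windows) was in 1, the inner start of Ebf1. These matches are letters in short windows and carry no measurement of binding.

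Genes of the pro-B and pre-B cell programme, most of them known to be activated by Ebf1, Pax5 or Foxo1, rose with the factors. Of 19 such genes, all tested, 15 rose and none fell (2.15% and 0.334% of all tested genes), with a median log2 fold change of 2.28. Cd79a and Blnk encode a signalling chain and an adaptor of the pre-B receptor. Their log2 fold changes were 2.75 and 2.94, with standard errors of 0.33 and 0.36 (adjusted p in edgeR = 0.000889 and 0.00097). Cplx2 was 16.6 and 6.41 CPM in the WT libraries and 169, 89.9 and 146 CPM in null (3.52, standard error 0.34, adjusted p in edgeR = 0.000254). Without WT library 1 the log2 fold changes of Cplx2, Blnk and Cd79a were 4.38, 3.83 and 3.36, and without WT library 2 they were 3.02, 2.42 and 2.35, where Blnk and Cd79a did not pass. In the robust fit none of these 3 genes passed (adjusted p = 0.158, 0.238 and 0.181 for Cplx2, Blnk and Cd79a). Fcrla, Syk, Cd72 and Bank1 did not pass, and Bank1, an adaptor of more mature B cells, was 5.92 to 15.4 CPM over the 5 libraries with overlapping groups.

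The called genes of this programme mostly shared the order of libraries of Pax5 and Ebf1. All 15 were higher in WT library 1 than in WT library 2, and 14 of the 15 had their lowest null level in null library 2. The gap between WT libraries 1 and 2 was wide in Vpreb3 (10.8 and 1.28 CPM) and narrow in Cd24a (352 and 295 CPM). The share of all tested genes in this order was not taken. Some of these calls were lost without WT library 1, and all but that of Cplx2 without WT library 2. Among all 19 genes of the programme, called above or not, the robust fit called 7. The factors and this programme were proposed with results of these libraries known, so the counts for one are not independent support for the other.

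**Figure D4:**
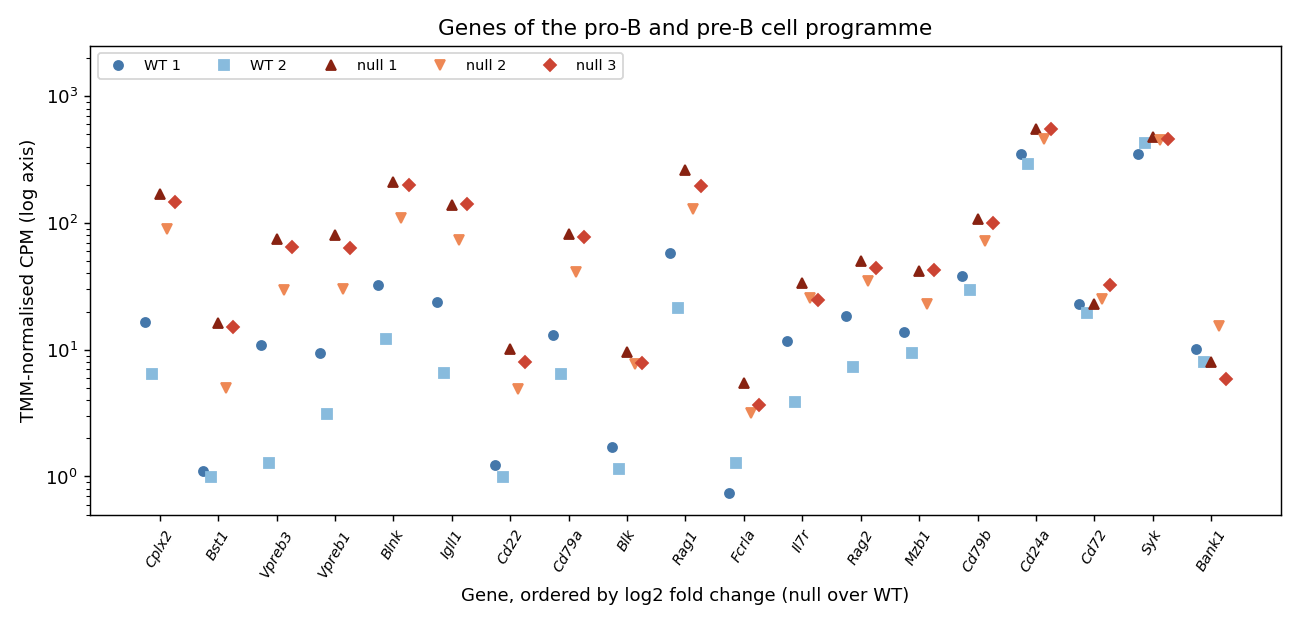
TMM-normalised CPM (log axis) of 19 genes of the pro-B and pre-B programme in the 2 WT and 3 null libraries, ordered by log2 fold change. The null points lie above both WT points in 17 of the 19 genes (15.5% of all tested genes), with Cd72 and Bank1 overlapping.

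Most other transcription factors of early lymphoid development did not pass. Of 18, all tested, 2 rose and none fell (2.15% and 0.334% of all tested genes), with a median log2 fold change of 0.06. Lef1, a Wnt pathway factor expressed in pro-B cells, was 11.8 and 3.13 CPM in the WT libraries and 128, 64.3 and 108 CPM in null (log2 fold change 3.70, standard error 0.40, adjusted p in edgeR = 0.000513, lost in the robust fit, with 4.98 without WT library 1 and 3.08 without WT library 2). Ets1 was 78.6 and 60.5 CPM in the WT libraries and 162, 123 and 144 CPM in null (1.04, standard error 0.15, adjusted p in edgeR = 0.00246, lost without WT library 2). Myb, the most abundant of them at 817 to 960 CPM, Bcl11a, Mef2c, Runx1 and Sox4 did not pass, with log2 fold changes between -0.14 and 0.11.

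Genes that Pax5 is known to repress in pro-B cells did not pass. Of 6, all tested, none was called by edgeR, DESeq2 or limma-voom (0 each), and an unadjusted p under 0.05 was reached by 2 higher and 1 lower gene. The 2 higher genes were Grap2 and Cd28, at 2.13-fold and 2.99-fold (adjusted p in edgeR = 0.184 and 0.252). Grap2 had 32 and 20 counts in WT and Cd28 had 4 and 5. The lower gene was Flt3. Flt3, a cytokine receptor of lymphoid-primed progenitors, was 941 and 962 CPM in the WT libraries and 751, 822 and 765 CPM in null (log2 fold change -0.29, standard error 0.12, adjusted p in edgeR = 0.318). Notch1, which directs progenitors to the T lineage, was 556 and 729 CPM in the WT libraries and 609, 731 and 603 CPM in null (0.01, standard error 0.15, adjusted p in edgeR = 0.987).

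The plasma cell programme, which Bach2 holds back and Irf4 later promotes, did not pass in any of 6 tested genes in edgeR, DESeq2 or limma-voom (an unadjusted p under 0.05 was reached by 0 higher and 1 lower gene). Prdm1, the factor that drives it, had 16 to 34 counts per library and a log2 fold change of 0.60, with a standard error of 0.38 (adjusted p in edgeR = 0.574). Xbp1 was 95.3 to 132 CPM. Jchain, the joining chain of secreted antibodies, had 118 and 189 counts in WT and 1, 89 and 85 in null and did not pass (adjusted p in edgeR = 0.375).

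Of 11 tested markers of mature B cells, 4 rose and 1 fell (2.15% and 0.334% of all tested genes). When either of the WT libraries was left out, 1 was higher and 0 were lower. Fcmr, a receptor for IgM, had 1 and 2 counts in WT and 63, 46 and 45 in null, a ratio of 33.5 with an exact 95% interval of 11.3 to 164 from counting error alone (adjusted p in edgeR = 0.000703). Ms4a1 (CD20) had 3 and 2 counts in WT and 81, 61 and 39 in null (log2 fold change 4.51, standard error 0.56, adjusted p in edgeR = 0.00109). Cd74 and H2-Aa of antigen presentation also rose. The calls of Ms4a1, Cd74 and H2-Aa were lost without WT library 1 and without WT library 2, those of Cd74 and H2-Aa also in DESeq2 and the robust fit, and that of H2-Aa also in limma-voom. Igkc, the kappa light chain constant region, was 151 and 341 CPM in the WT libraries and 31.7, 111 and 87.3 CPM in null. It fell by 1.68 (log2, standard error 0.40, adjusted p in edgeR = 0.0486) and by 0.98 without WT library 2, a call lost in DESeq2, limma-voom and the robust fit and when either WT library or null library 3 was left out. By contrast Ighm was 506 and 835 CPM in the WT libraries and 672, 587 and 734 CPM in null (adjusted p in edgeR = 0.989), and Cr2 had 0 to 8 counts per library.

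Factors that define other blood lineages gave 3 higher and none lower of 12 tested (2.15% and 0.334% of all tested genes), where the list had a median log2 value of 0.79 and an unadjusted p under 0.05 for 7 higher and 2 lower genes. The 3 were the T lineage factors Tcf7 and Bcl11b and the innate lymphoid factor Zbtb16. Tcf7 was 3.45 and 2.42 CPM in the WT libraries and 13.2, 13.3 and 12.2 CPM in null (log2 fold change 2.12, standard error 0.27, adjusted p in edgeR = 0.00117), and Bcl11b had 2 and 1 counts in WT and 22, 33 and 28 in null, a ratio of 18.1 (exact 95% interval 5.97 to 89.4, counting error only). Klf1, Gata3 and Cebpe, factors of the erythroid, T and neutrophil lineages, had fold changes of 2.78, 1.79 and 5.57 and did not pass (adjusted p in edgeR = 0.148, 0.158 and 0.221). The calls of Tcf7, Bcl11b and Zbtb16 were lost without WT library 2, and those of Bcl11b and Zbtb16 also without WT library 1. The myeloid factors Cebpa and Cebpb, the erythroid factor Gata1 and the stem cell factor Gata2 did not pass (adjusted p in edgeR = 0.837, 0.357, 0.155 and 0.844).

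Markers of other cell types were read in the same libraries, and their part in the rise of the factors was not tested. Of 9 tested markers of plasmacytoid dendritic cells, in which Spib is also used, 1 rose (2.15% of all tested genes), Ly6d, a marker shared with B-biased lymphoid progenitors. The Ly6d call was lost without WT library 1 and without WT library 2, and its log2 fold change was 1.57 to 1.85 over 12 alternative fits. An unadjusted p under 0.05 in edgeR was reached by 1 higher and 1 lower gene. The lower gene, Ccr9, was 22.5 and 16.4 CPM in the WT libraries and 11.5, 10.2 and 14.4 CPM in null (adjusted p in edgeR = 0.149). Klk1 was at 0 in every library, Siglech had 18 and 3 counts in WT and 67, 19 and 5 in null, and Cox6a2 had 7 in each WT library and 20, 18 and 6 in null. The summed level of the list was 703 and 771 CPM in the WT libraries and 666 to 693 CPM in null, most of it from Ptprs (363 to 484 CPM over the 5 libraries) and Runx2 (210 to 242 CPM). Of 8 mature neutrophil markers, 6 were tested, and edgeR, limma-voom and DESeq2 each called 0, with an unadjusted p under 0.05 in edgeR for 6 higher genes. Their summed level was 143 and 106 CPM in the WT libraries and 2196, 586 and 132 CPM in null libraries 1, 2 and 3. T and NK cell markers summed to 35.4 to 53.1 CPM with Cd3e at 0 in 4 of the 5 libraries, and late erythroid markers to 3.58 to 35.0 CPM. 6 of 10 tested endothelial and stromal markers rose (2.15% of all tested genes). Sparc, Igfbp5, Cdh5 and Cxcl12 were 43.8-fold, 48.5-fold, 17.1-fold and 12.1-fold higher in null (adjusted p in edgeR at most 0.00174), and Kdr and Lepr were the other called genes. The log2 fold changes of Sparc, Cdh5 and Cxcl12 were 4.72, 3.49 and 2.72 without WT library 1 and 6.68, 4.95 and 5.48 without WT library 2. These folds rest on few WT counts, which were 2 and 7 for Sparc, 2 and 3 for Igfbp5 and 0 and 0 for Lepr. The called markers, chosen for being higher in null, summed to 2.09 and 7.69 CPM in the WT libraries and 104, 97.9 and 84.8 CPM in null. Of the markers not called, Tek and Emcn were 1.05-fold and 0.999-fold in null over WT. Col1a1 was 43.3 and 52.5 CPM in null libraries 1 and 2 but 1.48 CPM in null library 3, as in WT library 1. Over all 10 markers, which include the abundant Pecam1, the sum was 185 and 191 CPM in the WT libraries and 367, 372 and 291 CPM in null.

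Of 5 LSK gate genes, none passed in edgeR or limma-voom (0 each) and 1 was lower in DESeq2, with an unadjusted p under 0.05 in edgeR for 0 higher and 2 lower genes. Procr, which encodes a protein C receptor of stem cells, was 17.5 and 23.2 CPM in the WT libraries and 11.7, 12.7 and 12.1 CPM in null (log2 fold change -0.74, standard error 0.19, adjusted p in edgeR = 0.0699). Kit, Cd34 and Procr, and Flt3 from outside this list, lay lower in all 3 null libraries than in both WT libraries without passing in edgeR. Of all tested genes, 13.7% lay lower in this way, called or not. Slamf1 had a log2 fold change of 0.60, with a standard error of 0.31 (adjusted p in edgeR = 0.461). Its groups overlapped, as did those of Ly6a.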

How the data were processed

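RNA of LSK cells was compared between 2 WT and 3 Gabbr1 null libraries. The authors deposited raw counts, 1 whole number per gene and library. The mm10 build and the tools STAR and featureCounts are given in the submitters' processing notes. Their versions, the annotation release and the strand setting are not stated in any label or header read here. Pax5, Foxo1 and Bach2 share exon bases with antisense or unclassified genes on the opposite strand, whose reads could not be told apart without strand. Per the labels' protocols, 3.6 to 5 ng of RNA entered a ribosome-depleted library, while the molecule field names polyA RNA.

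99.5% of 39056 identifiers matched GENCODE M21. filterByExpr kept 13467 genes, which were scaled by TMM. Null was compared with WT in edgeR 4.0.16 (glmQLFTest, R 4.3.3), and genotype was the sole covariate. Standard errors follow from F, and 95% intervals use its degrees of freedom. CPM are TMM-normalised. Ratios are log2 of counts with 0.5 added. Total counts of 6972753 to 8150774 set the precision. The code was checked on simulated counts. Of the genes set to change 1.5-fold, 2-fold and 4-fold, 25%, 66.7% and 87.1% were recovered, and 16 of 127 calls were genes left unchanged. A gene that did not pass may therefore still have changed by such amounts. No pair of libraries agreed within sampling noise.

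The members and the 13 other gene lists were chosen with earlier results of these data known. 1 gene of the pro-B and pre-B programme and 1 LSK gate gene are not reported here and were left out of their lists. The genes eligible to be named were the members, Gabbr1, the 3 genes of lowest p and 2 of highest level in each list, genes past an adjusted p of 0.05, and the 3 genes most correlated with each member. Further list genes, most of them named as not passing, were chosen after their values were seen. Alternatives were RLE and upper quartile factors, a strict filter (CPM of at least 1 in each library), no filter, limma-voom (limma 3.58.1), DESeq2 1.42.0, a robust fit and each library left out. Replicate numbers follow accession order and pair nothing.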

Additional observations from a re-analysis of the deposited data

How the results depend on the processing

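No paired analysis was possible because the labels carry no replicate numbers. Unfiltered counts gave 602 genes higher and 155 lower, and the strict filter 173 higher. No member or called list gene turned direction in any alternative. Leaving out each library gave 32 to 316 higher and 0 to 51 lower, and 3 to 8 of the 10 factors higher and 0 lower. The robust fit called 5 factors, 1 relative, 1 early factor and 7 programme genes. With no filter, 1 Pax5-repressed gene, 5 lineage factors, 2 dendritic, 6 neutrophil and 3 erythroid markers were higher and 1 plasma cell gene, 1 dendritic marker and 1 gate gene lower. The strict filter gave 2 mature B-cell and 1 stromal marker higher, and DESeq2 2 mature B-cell markers higher. DESeq2, limma-voom and the robust fit each called 0 mature B-cell markers lower, and DESeq2 and the robust fit 1 gate gene lower. Leaving out each library gave 0 to 3 relatives, 1 to 2 early factors, 1 to 16 programme genes, 1 to 6 mature B-cell markers, 0 to 5 lineage factors, 0 to 1 dendritic, 0 to 6 neutrophil, 0 to 1 erythroid and 5 to 7 stromal markers higher, and 0 to 1 mature B-cell marker lower. The cause was not tested for the tool settings; the filters change the number of genes tested, and a fit without a WT library leaves 1 WT library, taken to vary as the null libraries do.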
